A study of Mus musculus with 374 samples.

Results

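The carbonic anhydrase genes Car1 and Car2, the water channel gene Aqp1 and the bisphosphoglycerate mutase gene Bpgm are 4 of the 19829 mouse genes in a single cell count table of blood cells. They were named as genes of gas exchange in the red cell, at a time when earlier results of these data were known. Single cells were taken from 1 female C57BL/6 mouse of 10 to 13 weeks and profiled on 1 plate by CEL-seq2, a 3′ end protocol in which each captured transcript carries a random barcode (unique molecular identifier, UMI) that is counted once. The sort gave 96 erythroblasts (Ter119+ CD44+, mid to high forward scatter), 95 progenitor/stem cells (Lin- Kit+ Sca1+), 96 granulocytes (Mac1+ Gr1+) and 44 B lymphocytes (B220+, low forward scatter) from bone marrow, and 43 T lymphocytes (CD3+, low forward scatter) from thymus. The cells were untreated as far as the labels say. Each population is therefore 1 sample of 1 mouse, differences between populations have no replicate check, and all intervals given here are 95% intervals that cover counting error only.

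Carbon dioxide leaves tissues in the blood largely as bicarbonate. Carbonic anhydrases in the red cell cytoplasm convert carbon dioxide and water to bicarbonate and a proton, band 3 (Slc4a1) exchanges the bicarbonate for chloride across the membrane, and haemoglobin binds the proton as it gives up oxygen. Aquaporin 1 carries water, and carbon dioxide has been described to cross it as well. Bisphosphoglycerate mutase makes 2,3-bisphosphoglycerate, a metabolite of a side branch of glycolysis that lowers the affinity of haemoglobin for oxygen. Erythroblasts are the nucleated precursors of red cells. As they mature they become smaller, lose surface CD44 and accumulate haemoglobin.

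The populations held 666728 UMIs on mouse genes in the erythroblasts, 834812 in the progenitor/stem cells, 403506 in granulocytes, 135808 in B lymphocytes and 200396 in T lymphocytes, with medians per well between 3028.5 and 7959. Levels are given as CPM, in which the summed counts of a gene are scaled to all UMIs on mouse genes of the same wells. Haemoglobin transcripts made up 23.5% of the erythroblast UMIs and between 1.21% and 2.83% in the other 4 populations. All 9 erythroblast markers read, among them Klf1, Alas2 and Epor, were at least 2-fold higher in the erythroblasts than in the progenitor/stem cells, and the markers of mast cells and basophils were at 0. Of the other marker lists, granulocyte markers summed to 1147 UMIs in the erythroblasts (1720 CPM, against 151626 CPM in the granulocytes), progenitor markers to 90, B lymphocyte markers to 81, megakaryocyte markers to 32, T lymphocyte markers to 26, macrophage markers to 7 and endothelial markers to 4. Their part in the results was not tested. By correlation with the population sums, 7 of the 374 wells lay nearest to another population, 1 of them an erythroblast well (C5, 466 UMIs). No barcode was shared by 2 wells. Without these 7 wells the population ratios given here against the progenitor/stem cells moved by less than 0.1 on the log2 scale. Of the ratios to the next highest population, that of Car1 moved more, as given with it.

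All 4 genes were higher in the erythroblasts than in each of the other populations, although for Bpgm against the T lymphocytes the interval included no difference. With a threshold of 2-fold, 4 of 4 members were higher in the erythroblasts than in the progenitor/stem cells, where 14.8% of all 4792 genes that reached 50 UMIs in both populations together were. The same held for 4 of 4 members against the granulocytes (40.2% of all genes), 4 of 4 against the B lymphocytes (33.8%) and 3 of 4 against the T lymphocytes (28.8%). Over all genes the median log2 ratio of erythroblasts over progenitor/stem cells was -0.73. The median and the shares over all genes depended on the scaling. With edgeR TMM and DESeq2 size factors the median was 0.13 and 0.24 and the share of genes at least 2-fold higher 27.2% and 29.5%, and on the ERCC scale 67.1% of genes were at least 2-fold higher than in the B lymphocytes. When the lower end of the interval had to pass 2-fold, the counts of members were 3, 4, 3 and 3, and Bpgm was the member lost against the progenitor/stem cells and the B lymphocytes.

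**Figure D1:**
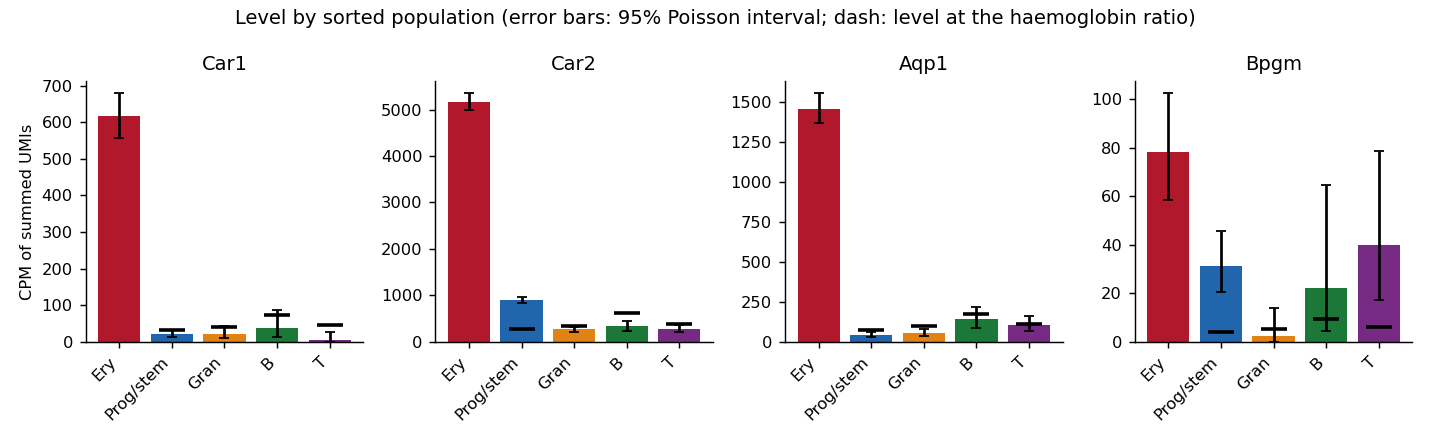
Summed level of each gene in CPM (vertical axis, linear, separate scale for each gene) in the 5 sorted populations, with 95% Poisson intervals. The black dashes mark the level a population would have if the gene stood to its haemoglobin UMIs as in the erythroblasts. Car2 in progenitor/stem cells (904 CPM) stands above its dash, and Car1 and Aqp1 outside the erythroblasts stand at or below theirs.

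Car1 encodes a cytoplasmic carbonic anhydrase that is abundant in red cells. It lies at chr3:14766216-14808368 on the minus strand (GRCm38, GENCODE M21) and overlaps the processed pseudogene Gm16399 on the same strand, so reads in the overlap cannot be assigned to one of them with certainty. Car1 was counted with 411 UMIs in the erythroblasts, 17 UMIs in the progenitor/stem cells, 9 UMIs in granulocytes, 5 in B lymphocytes and 1 in T lymphocytes. This gave 616 CPM in the erythroblasts (interval 558 to 679) and between 4.99 and 36.8 CPM elsewhere. The level in the erythroblasts was 30.3-fold that in the progenitor/stem cells (18.7 to 52.5) and 16.7-fold that in the B lymphocytes (7.12 to 51.8), the next population in the order. The last ratio rests on 5 UMIs, 2 of them in well B23, and its log2 value of 4.07 became 4.68 without the well with the most Car1 UMIs in each population, 4.33 without the wells nearest to another population and 2.55 as a ratio of means over wells. Only 28 of the 4792 genes, 0.584%, had a higher ratio to the progenitor/stem cells. Below the erythroblasts, no 2 neighbours in the order (B lymphocytes, granulocytes, progenitor/stem cells, T lymphocytes) differed beyond counting error.

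Car2 encodes the high-activity cytoplasmic carbonic anhydrase, which is also found in tissues outside the blood. The gene lies at chr3:14886273-14900770 on the plus strand and overlaps no other gene. It was counted with 3449 UMIs in the erythroblasts (5173 CPM, 5002 to 5349), 755 in the progenitor/stem cells (904 CPM, 841 to 971), 45 in the B lymphocytes (331 CPM), 55 in the T lymphocytes (274 CPM) and 107 in the granulocytes (265 CPM). The erythroblasts stood 5.72-fold above the progenitor/stem cells (5.29 to 6.20). These in turn stood 2.73-fold above the B lymphocytes (2.02 to 3.77), while the B lymphocytes, T lymphocytes and granulocytes did not differ from each other beyond counting error as neighbours in the order. Wells B19 to B24 held 20 of the 45 Car2 UMIs of the B lymphocytes. Without them the B lymphocytes were at 214 CPM, below the T lymphocytes and the granulocytes, and the progenitor/stem cells stood 4.23-fold above them (2.84 to 6.58). With all wells kept, Car2 was thus the one member with a population that differed from both its neighbours in the order beyond counting error. The Car2 ratio of erythroblasts over progenitor/stem cells was exceeded by 6.30% of all genes.

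Aqp1, at chr6:55336432-55348555 on the plus strand, encodes aquaporin 1. It was counted with 974 UMIs in the erythroblasts (1461 CPM, 1371 to 1556), 19 in the B lymphocytes (140 CPM), 21 in the T lymphocytes (105 CPM), 22 in the granulocytes (54.5 CPM) and 35 in the progenitor/stem cells (41.9 CPM). The erythroblast level was 34.8-fold that of the progenitor/stem cells (24.9 to 50.3), a ratio exceeded by 0.459% of all genes, and 10.4-fold that of the B lymphocytes (6.65 to 17.4). Wells B19 to B24 held 10 of the 19 Aqp1 UMIs of the B lymphocytes, and 1620 of their 3842 haemoglobin UMIs. Without these 6 wells the log2 ratio of erythroblasts over B lymphocytes rose from 3.38 to 4.25. Among the other populations, the T lymphocytes stood 1.92-fold above the granulocytes (1.01 to 3.66), and no other neighbours differed beyond counting error.

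Bpgm, at chr6:34476207-34505613 on the plus strand, was the gene with the fewest UMIs. It was counted with 52 UMIs in the erythroblasts (78.0 CPM, 58.2 to 102), 8 in the T lymphocytes (39.9 CPM, 17.2 to 78.7), 26 in the progenitor/stem cells (31.1 CPM, 20.3 to 45.6), 3 in the B lymphocytes (22.1 CPM) and 1 in the granulocytes (2.48 CPM). The erythroblasts stood 2.50-fold above the progenitor/stem cells (1.54 to 4.18). Against the T lymphocytes the ratio was 1.95 with an interval of 0.922 to 4.76, and no neighbours in the order of the 5 populations differed beyond counting error. Against the granulocytes, with 1 UMI, the ratio was 31.5 with an interval of 5.40 to 1267. Bpgm was therefore the member whose level was least separated between the populations at this depth.

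The members differed in how their few UMIs outside the erythroblasts stood to haemoglobin, whose transcripts were found in wells of every population. If the ratio of a member to haemoglobin were that of the erythroblasts, the progenitor/stem cells would hold 26.5 Car1 UMIs, 223 Car2 UMIs, 62.9 Aqp1 UMIs and 3.36 Bpgm UMIs. The counts were 17, 755, 35 and 26. Car2 was thus counted 3.39 times as often as at the ratio of the erythroblasts (3.13 to 3.67) and Bpgm 7.74 times (4.64 to 12.6), whereas Car1 was counted 0.641 times (0.370 to 1.04) and Aqp1 0.557 times (0.385 to 0.780) as often. In the T lymphocytes Bpgm was counted 6.81 times as often (2.79 to 14.4), with Car1 at 0.108 (0.0027 to 0.603, on 1 UMI), Car2 at 0.706 and Aqp1 at 0.954. In granulocytes and B lymphocytes the values for Car1, Car2 and Aqp1 lay between 0.497 and 0.797. Car2 in the progenitor/stem cells and Bpgm in the progenitor/stem cells and T lymphocytes were the cases in which the interval lay above 1. The interval lay below 1 for Car1 in the T lymphocytes and for Aqp1 in the progenitor/stem cells and granulocytes. For Car2 it did so in the granulocytes, B lymphocytes and T lymphocytes. From which cells the UMIs outside the erythroblasts came was not tested.

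The spread over single wells was also unlike between the members. Car2 had a UMI in 95 of 96 erythroblast wells, with a lowest value of 0, a median of 31 and a highest value of 102 UMIs. Aqp1 had a UMI in 95 of 96 wells (0, 9 and 34 UMIs). Well C5, the erythroblast well nearest to another population, was the well without Car2 and without Aqp1, and it held 1 Car1 UMI. Car1 had a UMI in 65 of 96 wells, or 67.7% (57.4 to 76.9), with a median of 2 and a highest value of 38 UMIs in well C1. Bpgm had a UMI in 32 of 96 wells, or 33.3% (24.0 to 43.7), with a median of 0, and well F12 held 9 of its 52 UMIs. At least 50% of the UMIs lay in 12 wells for Car1 and 8 wells for Bpgm, against 31 wells for Car2 and 29 for Aqp1. These numbers depend on the count of each gene, and the 52 UMIs of Bpgm cannot spread as widely as the 3449 of Car2. The members were not compared at equal counts here.

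**Figure D2:**
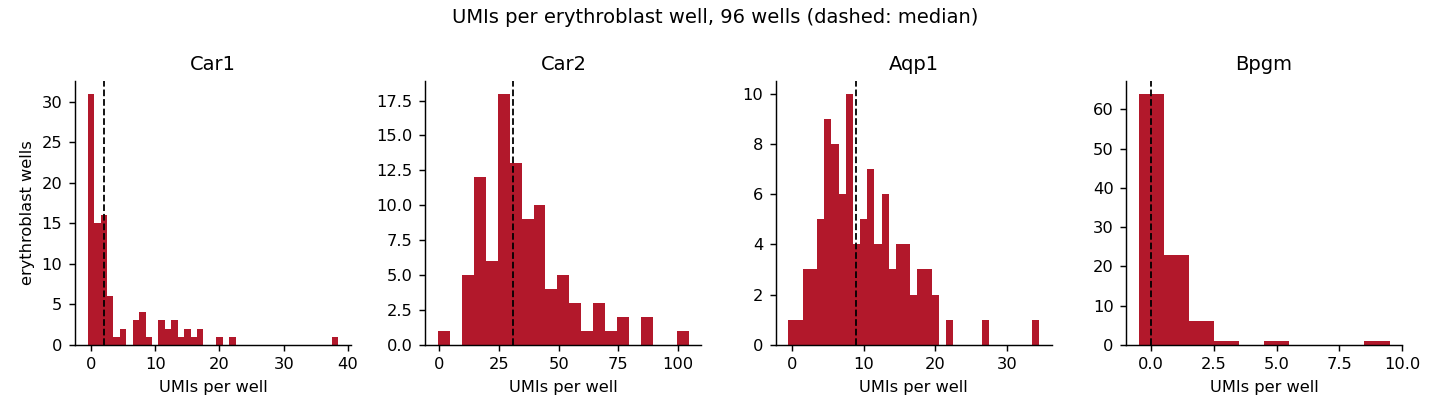
Histograms of UMIs per well (horizontal axis) over the 96 erythroblast wells (vertical axis, number of wells), with the median as a dashed line. Car2 and Aqp1 form a single hump away from 0, whereas 31 wells for Car1 and 64 wells for Bpgm are at 0.

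Because wells differed in depth, the share of wells with a UMI was also computed after thinning each well to 1000 UMIs. Of the erythroblast wells 95 were deep enough, and the share was 31.2% for Car1, 99.2% for Car2, 75.9% for Aqp1 and 8.24% for Bpgm. Thinned to 2000 UMIs, these shares were 45.7%, 99.98%, 93.2% and 14.4%. In the T lymphocytes, which are not of the red cell lineage, the share at 1000 UMIs was 0.494%, 25.1%, 8.69% and 3.48%. The T lymphocyte shares are given for comparison only, and where the UMIs behind them came from was not tested. Unthinned, the T lymphocyte shares were 2.33%, 72.1%, 34.9% and 18.6% at a median of 4347 UMIs per well, against 6113.5 in the erythroblasts. Every one of the 95 progenitor/stem wells had a Car2 UMI, with 1 to 29 UMIs and a median of 7, and after thinning the share was 59.1%. For Car1, Aqp1 and Bpgm the thinned shares in the progenitor/stem cells were 1.61%, 4.12% and 3.10%, of which those for Aqp1 and Bpgm were below the T lymphocyte values.

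The fluorescence recorded for each sorted cell allowed the erythroblast wells to be ordered by surface protein. The Ter119 antibody binds a red cell surface antigen, and all wells had been gated as Ter119+ CD44+, so the range is that within the gate (Ter119 from 3046 to 16431 and CD44 from 976 to 6170 arbitrary units). Wells were split at the median of CD44, of forward scatter and of Ter119, the last chosen after the data had been seen. In the wells, Ter119 went with the haemoglobin share of the UMIs (Pearson r = 0.75 and Spearman rho = 0.78 over 96 wells) and against the number of UMIs (r = -0.41). These correlations and those given later describe wells of 1 mouse that share a plate.

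Among the members, Car1 had the log2 ratio of the largest size by CD44 and by Ter119, though the median of all genes shifted in the same direction. The ratios of Bpgm, given below, went against that median, and their intervals overlapped those of Car1 in size. Fewer genes lay beyond Bpgm than beyond Car1 (0.749% by CD44 and 0.428% by Ter119). The 48 wells with higher CD44 held 329 Car1 UMIs (813 CPM) and the 48 wells with lower CD44 held 82 (313 CPM), a log2 ratio of 1.38 (1.02 to 1.74), and 42 against 23 wells had a UMI. Of 1870 genes tested, 20.2% were at least 2-fold higher in the CD44-high group and 0.963% at least 2-fold lower. The median log2 ratio of these genes was 0.26, and 9.36% of them had a ratio above that of Car1. In the Ter119-high group Car1 was counted with 71 UMIs (255 CPM) and in the Ter119-low group with 340 (876 CPM), a log2 ratio of -1.78 (-2.17 to -1.41). Here 22.6% of genes were at least 2-fold lower in the Ter119-high group and 2.78% at least 2-fold higher. The median log2 ratio of all genes was -0.36, and 2.35% of genes had a ratio below that of Car1. Over 4 bins of 24 wells by CD44, from lowest to highest, the Car1 level was 375, 256, 537 and 1039 CPM, so it did not rise at each step. Over 4 bins by Ter119, from lowest to highest, it was 959, 779, 365 and 125 CPM.

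Depth and haemoglobin content moved with this order. The haemoglobin share was 33.5% in the Ter119-high group and 16.4% in the Ter119-low group, with medians of 5427 and 7324.5 UMIs per well. When the groups were taken within wells of similar UMI number, the log2 ratio of Car1 was -1.20 for Ter119 and 1.09 for CD44. Scaled to UMIs without haemoglobin, it was -1.45 for Ter119 and 1.08 for CD44. Car1 was lower in the Ter119-high group within each of the 4 plate rows (-2.76 to -1.06) and higher in the CD44-high group within each of them (0.38 to 1.63). The split by forward scatter gave a smaller Car1 difference, with a log2 ratio of 0.62 (0.32 to 0.92). In the larger cells 12.7% of genes were at least 2-fold higher and 0.856% at least 2-fold lower. The median of all genes was 0.25, and 28.0% of genes had a ratio above that of Car1. Within plate row C the Car1 ratio was -0.57.

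Bpgm had the opposite order to Car1, on few counts. The Ter119-high group held 36 UMIs (129 CPM) and the Ter119-low group 16 (41.2 CPM), a log2 ratio of 1.65 (0.76 to 2.60) that 0.428% of genes exceeded. By bin of Ter119 the level was 52.5, 28.0, 33.1 and 242 CPM, so the 24 wells with the highest Ter119 stood apart and held 31 of the 52 UMIs, in 15 wells. The 3 wells with the most Bpgm UMIs were F12 with 9, F6 with 5 and D7 with 3, and their Ter119 values of 16431, 12339 and 9311 all fell among these 24 wells. Well F12 had the highest Ter119 value and the highest haemoglobin share (52.3%) of all erythroblast wells. None of the 3 wells held a Car1 UMI, but only 8 of the 24 wells with the highest Ter119 did. Without the well with the most Bpgm UMIs in each group the log2 ratio was 1.41. With the groups taken among wells below the median UMI number it was 2.92 (28 against 4 UMIs), and among wells above it 0.22 (10 against 10 UMIs). In plate row E it was -0.54 (3 against 6 UMIs).

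For CD44 the log2 ratio of Bpgm was -1.08 (-1.94 to -0.23; 22 against 30 UMIs). The median of all genes was 0.26, and 0.749% of genes had a ratio below that of Bpgm. Without the well with the most Bpgm UMIs in each group the Bpgm ratio was -0.77. Plate row F held 4 against 18 of these UMIs, while the ratio was -0.21 in row C and 0.61 in row E (6 against 3 UMIs). For forward scatter the Bpgm ratio was -1.28 (-2.20 to -0.42), where the median of all genes was 0.25 and 0.107% of genes lay below Bpgm. When groups were taken within wells of similar UMI number the Bpgm ratio was 0.023, with 16 against 16 UMIs in the shallower wells and 12 against 8 in the deeper ones. In plate rows C and E the ratio by forward scatter was 0.91 and 0.76.

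Car2 and Aqp1 were nearly level over the same wells. By bin of Ter119, Car2 was at 5136, 4987, 5409 and 5215 CPM and Aqp1 at 1499, 1502, 1359 and 1462 CPM. The log2 ratio of Ter119-high over Ter119-low wells was 0.07 (-0.03 to 0.17) for Car2 and -0.09 (-0.28 to 0.09) for Aqp1, and the CD44 groups differed by 0.10 (0.00 to 0.20) and 0.08 (-0.11 to 0.27). The direction of these small differences depended on the scaling. Scaled to UMIs without haemoglobin, the Ter119 ratios were 0.40 for Car2 and 0.24 for Aqp1, and scaled to the spiked ERCC transcripts they were -0.39 and -0.55. For CD44 the corresponding values were -0.19 and -0.21 without haemoglobin, and 0.68 and 0.66 on the ERCC scale. Under the same 3 scalings Car1 stayed lower and Bpgm higher in the Ter119-high group.

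**Figure D3:**
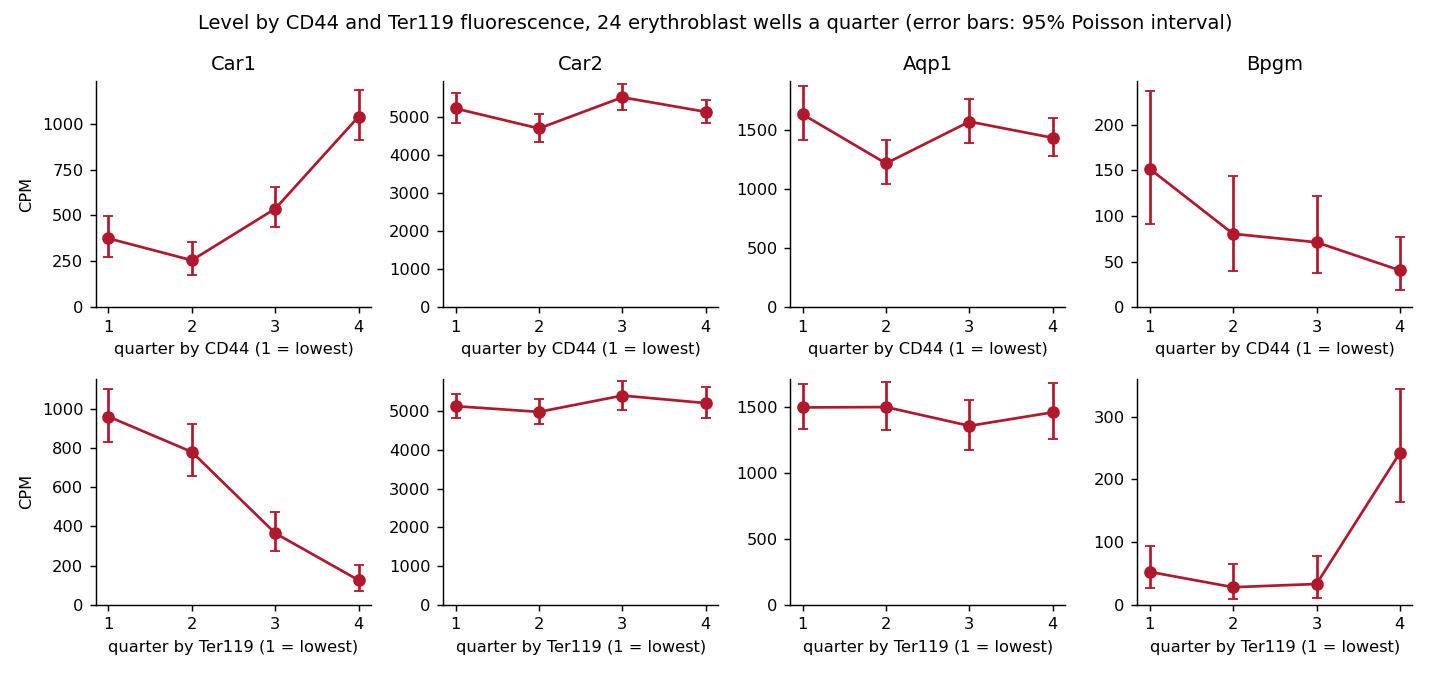
Summed level in CPM (vertical axis, linear from 0) in 4 bins of 24 erythroblast wells ordered by CD44 (upper row) or Ter119 (lower row) fluorescence, with 95% Poisson intervals. Car1 runs from 959 to 125 CPM with rising Ter119, and with rising CD44 it is at 375, 256, 537 and 1039 CPM. Bpgm is at 242 CPM in the upper Ter119 bin, and Car2 and Aqp1 stay within narrow ranges.

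Across the 96 wells, on the log2 scale of UMIs per 10000 without haemoglobin and with a pseudocount of 1, the Car1 level went against the haemoglobin share (r = -0.73, rho = -0.73). Bpgm went with it (r = 0.43, rho = 0.32), and so did Car2 (r = 0.46, rho = 0.64), but with haemoglobin kept in the total the values for Car2 were 0.13 and 0.07. Without well C5 the r of Car2 was 0.62. Between the members, Car1 and Car2 went in opposite directions (r = -0.34, rho = -0.38), and Car2 and Aqp1 together (r = 0.54, rho = 0.30). The last r fell to 0.23 without well C5. Denominator, depth and library are shared by all these values, and the counts of Bpgm are sparse.

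**Figure D4:**
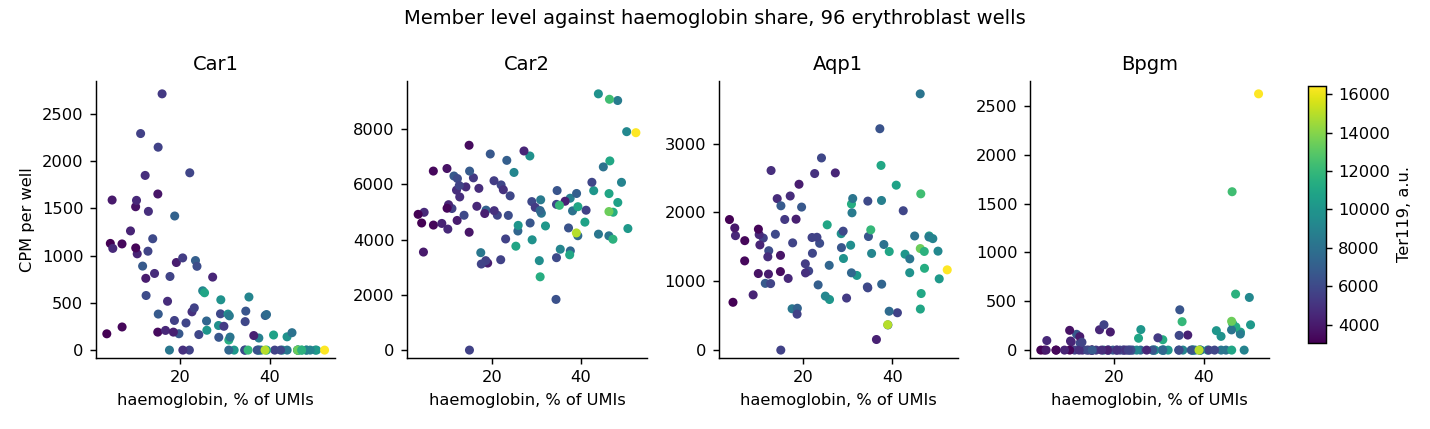
Level of each gene per erythroblast well in CPM (vertical axis, linear) against the haemoglobin share of the UMIs of that well in percent (horizontal axis), with Ter119 fluorescence as colour. High Car1 values lie at low haemoglobin shares, and the well with 9 Bpgm UMIs lies at the highest haemoglobin share, 52.3%.

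The 3 genes whose pattern over the erythroblast wells was most like that of each member, among 942 or 943 genes that reached 100 UMIs and were counted in 25% of the wells or more, differed between members. For Car1 they were Gm9794 (r = 0.75), Gm5963 (r = 0.72) and Gm15500 (r = 0.70), all annotated as processed pseudogenes, whose reads cannot be told apart with certainty from those of near-identical copies. For Car2 they were Gpx1, a glutathione peroxidase (r = 0.77), Slc4a1, band 3 (r = 0.77) and Ctse, cathepsin E (r = 0.74). Without well C5 these values were 0.59, 0.60 and 0.41. By Spearman correlation none of the 3 genes nearest to Car2 or to Aqp1 was the same, and those of Car2 were Hba-ps4, Hbb-bt and Hbb-bs. For Aqp1 they were Car2 (r = 0.54), Gpx1 (r = 0.53) and Slc4a1 (r = 0.50), and without well C5 none of these 3 was among the nearest. For Bpgm they were Gda, guanine deaminase (r = 0.58), Tmcc2 (r = 0.54) and Mkrn1 (r = 0.54). Over all genes compared, 95% had an r below 0.59 for Car1, 0.39 for Car2, 0.31 for Aqp1 and 0.33 for Bpgm. Without well C5, Rps13-ps2 took the place of Gm15500 for Car1, Hbb-bt that of Ctse for Car2 and Pabpc1 that of Mkrn1 for Bpgm. The gene with the lowest r was Hba-a2 for Car1 (-0.71) and Ccnd3, cyclin D3, for Bpgm (-0.54).

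Other genes of the same pathway were read from lists by function. Band 3 and its membrane partners were higher in the erythroblasts than in the progenitor/stem cells by at least 2-fold in 5 of 5 cases read, where 14.8% of all genes were, with a median log2 ratio of 4.77. Slc4a1 was counted with 2857 against 131 UMIs (log2 ratio 4.77, 4.52 to 5.04), Rhag, the Rh-associated glycoprotein, with 489 against 21 (4.87), Rhd with 941 against 41 (4.84), Epb42, protein 4.2, with 382 against 19 (4.65) and Icam4 with 132 against 11 (3.91). The 4 adult haemoglobin genes measured had log2 ratios from 4.17 for Hba-a1 to 4.71 for Hbb-bt. Car1 and Aqp1, at 4.92 and 5.12, lay above the highest value of these lists (4.87, Rhag), though their intervals (4.22 to 5.71 and 4.64 to 5.65) overlapped that of Rhag (4.24 to 5.57), and Car2 and Bpgm, at 2.52 and 1.32, lay below every gene of both.

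Enzymes that reduce methaemoglobin or that belong to glycolysis gave a mixed picture. Blvrb, biliverdin reductase B, was counted with 896 against 28 UMIs (log2 ratio 5.32) and Cyb5r3, cytochrome b5 reductase, with 85 against 30 (1.83), which made 2 of 2 genes with enough UMIs at least 2-fold higher, beside 14.8% of all genes. In the glycolysis list 6 of 12 genes had at least 50 UMIs in both populations together, 1 of them was at least 2-fold higher in the erythroblasts and 4 at least 2-fold lower, where 14.8% of all genes were higher and 40.9% lower. The higher gene was Minpp1, a phosphatase that can also act on 2,3-bisphosphoglycerate, with 132 against 53 UMIs (log2 ratio 1.64, 1.17 to 2.13). The lower genes were Gpi1 (3 against 60 UMIs), Eno1 (16 against 101), Pkm (31 against 371) and Ldha (25 against 266). Hk1, hexokinase 1, was counted with 45 against 60 UMIs (log2 ratio -0.09, -0.68 to 0.49). Pgk1 and Pgam1, below the filter, had 0 against 37 and 1 against 47 UMIs, and the upper end of the interval of the Pgk1 log2 ratio was -2.93. Gapdh had 4 against 11 UMIs. Glycolytic genes have processed pseudogene copies, and the sources used here do not say how reads matching several copies were counted, so their levels are uncertain.

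**Figure D5:**
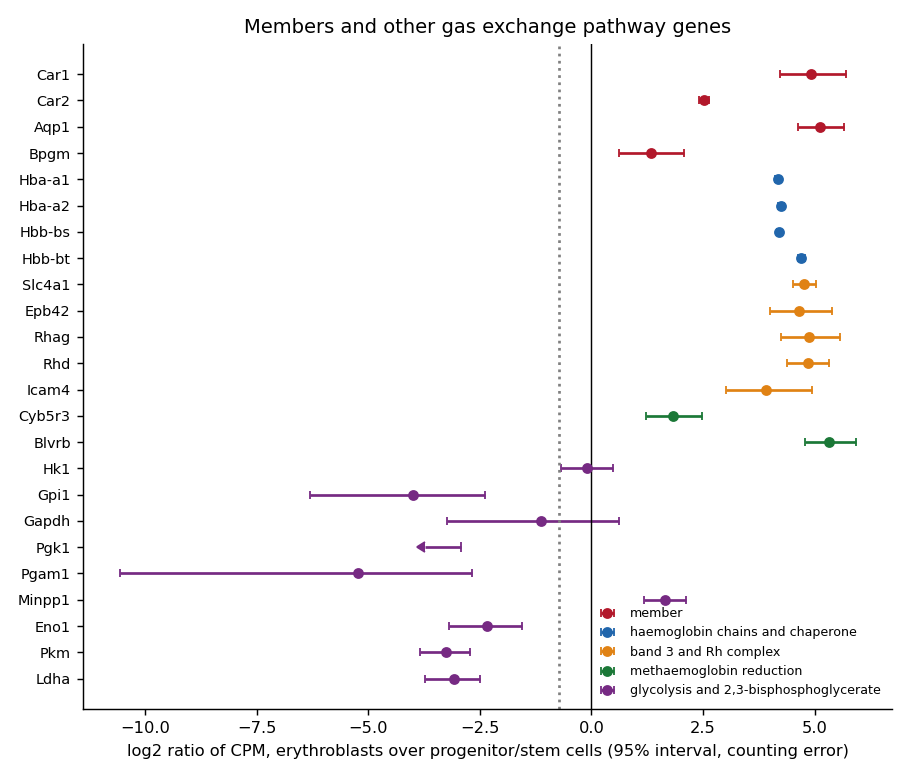
log2 ratio of CPM, erythroblasts over progenitor/stem cells (horizontal axis), with 95% counting intervals for the 4 members and the reported pathway genes with at least 20 UMIs over the 5 populations. Pgk1, at 0 UMIs in the erythroblasts, is drawn as the upper end of its interval with an arrow, and the dotted line is the median of all genes (-0.73). The band 3 and haemoglobin lists lie near Car1 and Aqp1, and 6 of the 9 glycolysis genes have intervals wholly below 0.

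The related genes of both families were hardly counted. Of 14 other carbonic anhydrase genes 7 were in the table, with at most 6 UMIs over all wells, and of 11 other aquaporin genes 3 were, with at most 9. Car13 and Car3 are the neighbours of Car1 and Car2 on chromosome 3, where the order is Car13, Car1, Car3 and Car2. Car13 had 1 UMI and Car3 had 0 UMIs in the erythroblasts, beside 411 for Car1 and 3449 for Car2. The 6 Car3 UMIs were all in the progenitor/stem cells. High counts in the erythroblasts were thus found for 2 of these 4 neighbouring genes.

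Promoter sequence was at hand for 2 of the members. The 250 bases upstream of the RefSeq start (GRCm38.p6, plus strand) are shown for Aqp1 and Bpgm, the members found in the promoter table, at chr6:55336049-55336298 and chr6:34476106-34476355. By the GENCODE coordinates given above, the last 149 bases of the Bpgm window lie inside the gene, and the Aqp1 window ends 133 bases before the gene. Both strands were searched for CACCC, the core of the motif bound by Klf1 and related factors, and for AGATAA or TGATAA, the GATA motif. Capitals mark CACCC or its reverse complement GGGTG.
Aqp1: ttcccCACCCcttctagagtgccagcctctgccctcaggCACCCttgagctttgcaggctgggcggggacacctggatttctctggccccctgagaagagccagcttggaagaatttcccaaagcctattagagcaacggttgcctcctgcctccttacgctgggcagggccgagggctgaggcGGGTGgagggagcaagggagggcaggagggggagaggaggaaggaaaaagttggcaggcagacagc
Bpgm: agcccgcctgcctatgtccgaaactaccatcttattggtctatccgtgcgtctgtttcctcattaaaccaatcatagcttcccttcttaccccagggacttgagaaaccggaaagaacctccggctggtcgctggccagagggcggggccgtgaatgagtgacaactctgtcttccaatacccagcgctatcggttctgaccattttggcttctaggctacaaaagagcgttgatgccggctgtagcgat
Aqp1 held 3 matches to CACCC and 0 to the GATA letters, and Bpgm held 0 of either. Of 32851 mouse promoters of the same length, 52.0% held CACCC and 16.6% a GATA match, so these matches are a description and tell nothing of binding.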

How the data were processed

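The authors deposited UMI counts per gene and well, whole numbers that are not normalized, made with *scPipe* by alignment, exon assignment, demultiplexing and UMI collapsing. The sources used here do not name the aligner version, build or annotation, and the labels give contradictory layouts of read 1. Of the columns, 374 matched a sample by well and 9 matching none were not used. Symbols and coordinates came from GENCODE M21 (GRCm38), while the build behind the counts is unknown. ERCC spike-in rows (6.76% of UMIs) stayed out of the totals.

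Wells were summed by sorted population and scaled to CPM. With 1 mouse no test across samples was possible, so exact Poisson, binomial and conditional binomial intervals (95%) are given. Ratios were ranked over genes with at least 50 UMIs, with sums under 3 set to 3. Named genes were the members, listed pathway genes with at least 20 UMIs, and the 3 genes most correlated with each member; well names, F6 and D7 among them, were chosen after their values were seen. Other genes of the lists are given as counts, and those missing from the table, such as Ahsp and Aldoa, are not analysed here. Another gene of the lists is not reported here, and the lists were summarised without it. Members and lists were chosen with earlier results of these data known. Alternatives used edgeR 4.0.16 and DESeq2 1.42.0 factors in R 4.3.3. Python 3.11.15 with scipy 1.17.1 did the rest, after the scripts had been tested on simulated data.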

Additional observations from a re-analysis of the deposited data

How the results depend on the processing

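The direction of each of the 4 members between erythroblasts and progenitor/stem cells was kept under the 10 alternatives that could change it. Other scalings moved the median of all genes, by 0.37 (log2) without haemoglobin, 0.86 with edgeR TMM factors, 0.97 with DESeq2 size factors and -0.11 on the ERCC scale against the progenitor/stem cells. The members moved with it, to 5.78 (TMM) and 5.89 (DESeq2) for Car1, 5.98 and 6.09 for Aqp1, 2.19 and 2.29 for Bpgm, and 3.38 and 3.48 for Car2. Car2, with its narrow interval, was also at 2.89 without haemoglobin, 2.40 on the ERCC scale, 2.39 as a mean over wells and 2.31 after thinning to 1000 UMIs. Against the B lymphocytes, Car1 was at 2.55 as a mean over wells, in which 1 UMI in a well of 485 UMIs counts as 2062 CPM. Aqp1 against the B lymphocytes was at 4.14 with TMM factors, 4.59 on the ERCC scale and 4.25 without wells B19 to B24.

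Within the erythroblasts, the ERCC scale moved the Car1 log2 ratio to 1.95 (CD44), 1.08 (forward scatter) and -2.24 (Ter119), that of Car2 to 0.68, 0.59 and -0.39, and that of Aqp1 to 0.66, 0.58 and -0.55. Scaling without haemoglobin moved Car2 to -0.19, -0.032 and 0.40, and Aqp1 to -0.21 (CD44) and 0.24 (Ter119). For Car1, the highest 32 against the lowest 32 wells gave 1.39 (forward scatter) and -2.87 (Ter119), the mean over wells 0.95 and leaving out the top wells 0.96 (both forward scatter), and groups formed within wells of similar UMIs -1.20 (Ter119). Bpgm by forward scatter reversed to 0.023 with groups formed within wells of similar UMIs. Where no cause is named, the cause was not tested. The numbers of members at least 2-fold higher differed by at most 1 from those reported. Groups formed within wells of similar UMIs or within plate rows were chosen after seeing the data. So was leaving out wells nearest to another population for results within the erythroblasts, whereas for the population ratios it was planned. The count of members with the lower end of the interval past 2-fold and the order of the populations without wells B19 to B24 were also chosen after seeing the data. The 3 genes nearest to Car2 and Aqp1 changed with the correlation used, as given with them. Depth limits Bpgm most, with 52 erythroblast UMIs.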
